A study of Homo sapiens with 2 samples.

Results

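The names examined are those of the miR-23, miR-27 and miR-24 family, the products of a pair of related gene clusters. A name of the deposited table was taken when, without the hsa- prefix, the asterisk, the arm and the copy number of the hairpin, it read miR-23a, miR-23b, miR-27a, miR-27b or miR-24. This gave 12 of the 934 names: 5 without an asterisk, called guides here, and 7 with one. Small RNA was sequenced from K562 cells, a line of human chronic myelogenous leukemia grown without drug, and from K562/ADM, the multidrug-resistant line raised from K562 by long exposure to adriamycin, an anthracycline, and kept at 1000 ng/mL of it. There was 1 library of each line, so that no test between the lines was possible and each difference is one between these libraries. K562/ADM is a single derived line, and the dose it was kept in is the only treatment named.

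Each of these clusters is transcribed as 1 primary transcript from which the hairpins of a miR-23, a miR-27 and a miR-24 are cut. One strand of a hairpin, the guide, is usually kept in an Argonaute protein and pairs through its seed, bases 2 to 8 from the 5′ end, with mRNAs that it represses, while the other strand is usually degraded. In blood cells miR-23a is known for its part in the choice between myeloid and lymphoid fates, miR-27 for repressing the transcription factor RUNX1, and miR-24 for repressing an activin receptor during erythroid differentiation. MiR-27a has also been reported to raise the expression of MDR1, now named ABCB1, the gene of the drug efflux pump P-gp, in ovarian and cervical cancer cells, the opposite of repression, which is why these names are of interest in an adriamycin-resistant line.

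The guides are shown because the a and b copies are nearly the same RNA, which bears on every comparison of the loci that follows. Sequences are from RefSeq (GRCh38.p14), in which all 11 names spelled miR were matched, and capitals mark the seed.
miR-23a: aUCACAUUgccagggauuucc
miR-23b: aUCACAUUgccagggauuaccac
miR-27a: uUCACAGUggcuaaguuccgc
miR-27b: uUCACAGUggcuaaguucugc
miR-24: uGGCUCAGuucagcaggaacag
Over the 21 bases they share in length, miR-23a and miR-23b differed by U19A, counted from 1 at the 5′ end with the base of miR-23a first, and miR-23b has 2 further bases. MiR-27a and miR-27b differed by C19U. Members of a pair therefore carry 1 seed, and miR-23 and miR-27 differ within it. MiR-24 has an unrelated seed, and the hairpins MIR24-1 and MIR24-2 yield the same miR-24, so that its reads cannot be assigned to a locus. No source used here gives how many mismatches the authors allowed in assigning reads, and the division of reads between a and b is uncertain. Their sums are given as well.

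The opposite strands tell the loci apart better and are shown for the hairpins whose asterisk names are compared further on.
miR-27a*: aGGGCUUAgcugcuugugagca
miR-27b*: aGAGCUUAgcugauuggugaac
miR-24-1*: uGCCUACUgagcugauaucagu
miR-24-2*: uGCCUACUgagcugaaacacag
MiR-27a* and miR-27b* differed at 8 of 22 bases and miR-24-1* and miR-24-2* at 6. The table also lists mir-24-2*, spelled in lower case, beside miR-24-2*. No source used here says what this spelling stands for, so no sequence is given for that name.

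On GRCh37 the hairpins of the a locus lie on the minus strand of chromosome 19, with MIR23A at chr19:13947401-13947473, MIR27A at chr19:13947254-13947331 and MIR24-2 at chr19:13947101-13947173. They span 373 nt within the single exon of the long noncoding RNA MIR23AHG. Those of the b locus lie on the plus strand of chromosome 9, with MIR23B at chr9:97847490-97847586, MIR27B at chr9:97847727-97847823 and MIR24-1 at chr9:97848303-97848370. They span 881 nt within the last intron of AOPEP, the gene of an aminopeptidase, in a transcript of 17 exons. The order 23, 27, 24 along the transcript is the same at both loci, and the a locus is the more compact.

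**Figure D1:**
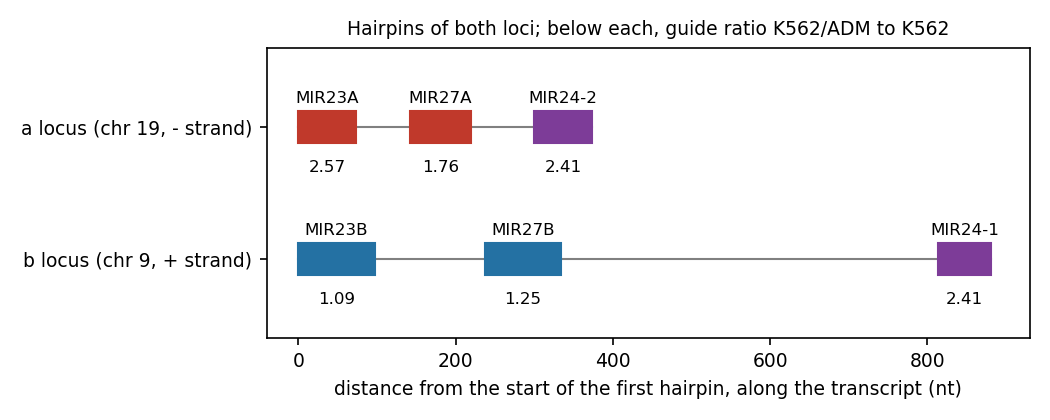
Map of both loci, with the distance from the start of the first hairpin along the transcript in nucleotides on the x axis and 1 row per locus. Boxes are hairpins, and the number below each is the ratio of its guide, K562/ADM over K562. The value 2.41 stands below both miR-24 hairpins because they share 1 mature miR, whereas MIR23A and MIR27A at 2.57 and 1.76 stand above MIR23B and MIR27B at 1.09 and 1.25.

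The libraries held 7677738 reads in K562 and 6895193 in K562/ADM over the 934 names. These are whole reads recovered from the deposited values, which the authors had divided by a size factor for each library. Ratios are of K562/ADM to K562 after the same scaling, the median of ratios, and each has an exact 95% Clopper-Pearson interval. The intervals cover counting error only, and nothing in these data measures how far repeated libraries of 1 line would differ. Calls of higher or lower needed both a 2-fold difference and an interval that leaves out 1.

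The family as a whole was more abundant in K562/ADM, with 38296 reads against 25293, or 0.555% of the library against 0.329%, and a ratio of 1.85 (1.82 to 1.88). Guides made up nearly all of this, with 23969 and 37374 reads and a ratio of 1.91 (1.88 to 1.94). Reads of the asterisk names summed to 1324 and 922, and their ratio was 0.853 (0.783 to 0.928), which turns above 1 under upper-quartile scaling. The sums of guides and of asterisk names thus lay on opposite sides of 1 under the scaling used here. Most of the asterisk reads, 1036 in K562 and 688 in K562/ADM, were of miR-27a*. Of the 7 asterisk names, 3 had ratios above 1 and 4 below.

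Of the 12 names, 2 were called higher, miR-24 and miR-23a, and 0 were called lower. Across all 934 names 11.1% were called higher and 15.6% lower, so that 2 of 12 is near the share of names called higher in the whole table. Under upper-quartile scaling 4 members were called higher and 0 lower, and over all names 223 were higher and 95 lower, in place of 104 and 146. Another 10 members were not called. Of these, 4 asterisk names had under 10 reads in both libraries together. The 8 members with at least 10 reads had a median log2 ratio of 0.22, beside -0.08 over all 604 names with that many reads. All 5 guides had ratios above 1, except that miR-23b fell just under it when the libraries were scaled by total reads, and 4 of the 5 intervals lay wholly above 1. Among all 169 names with at least 1000 reads, as each guide had, 73 intervals lay wholly above 1 and 84 wholly below.

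**Figure D2:**
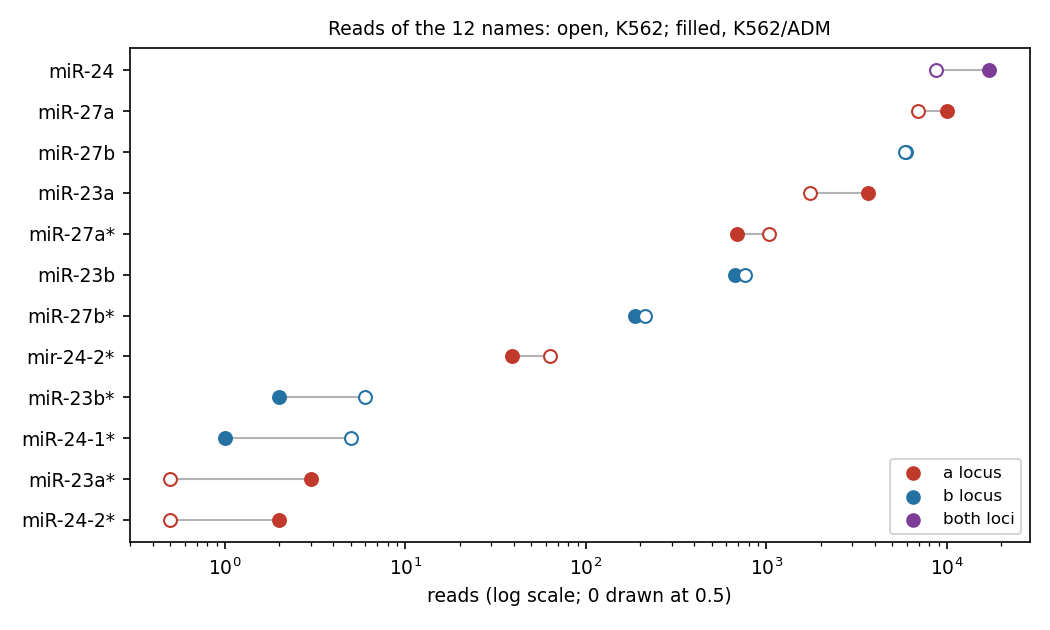
Reads of each of the 12 names on a log x axis, with 0 drawn at 0.5, in K562 (open circles) and K562/ADM (filled circles), before any scaling. Red marks names of the a locus, blue those of the b locus and purple miR-24, which both loci yield. The lower-case mir-24-2* is drawn red from its name alone. The circles of miR-24, miR-27a and miR-23a move to the right in K562/ADM, those of miR-27b nearly coincide at 5836 and 5970 reads, and miR-23b, miR-27a*, miR-27b* and mir-24-2* lie to the left of their K562 circles.

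MiR-24, the product of both loci, was the most abundant member in each library. K562 gave 8669 reads of it and K562/ADM gave 17093, a ratio of 2.41 (2.35 to 2.48). By reads it moved from rank 54 to rank 33 among the names of the table. MiR-24 held 36.2% of the guide reads of the family in K562 and 45.7% in K562/ADM, a share that does not depend on the scaling.

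Reads of miR-27a numbered 6962 in the K562 library and 9985 in the K562/ADM library. Its ratio was 1.76 (1.70 to 1.81), under the 2-fold limit, so that it was not called, and its rank moved from 57 to 43. Under upper-quartile scaling its ratio was 2.94 and it was called higher, as was miR-27b at 2.10. Its share of the guide reads of the family went from 29.0% to 26.7%, while those of miR-24 and miR-23a grew. Its partner miR-27b of the b locus had 5836 reads and 5970 reads and a ratio of 1.25 (1.21 to 1.30). Both miR-27 guides were thus more abundant in K562/ADM after scaling, miR-27a by more. Together they had 12798 and 15955 reads, with a ratio of 1.53 (1.49 to 1.56).

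Reads of miR-23a went from 1744 in K562 to 3653 in K562/ADM, and its ratio of 2.57 (2.42 to 2.72) was the highest among the members with at least 10 reads. MiR-23b had 758 and 673 reads. Its ratio was 1.09 (0.979 to 1.21), an interval that includes 1. The miR-23 guides summed to 2502 and 4326 reads, a ratio of 2.12 (2.02 to 2.23). If each read was counted under 1 name, this sum does not depend on how reads were divided between a and b. Whether reads were so counted was not tested.

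The order of abundance in K562 was miR-24, miR-27a, miR-27b, miR-23a, miR-27a*, miR-23b, miR-27b* and mir-24-2*, with no overlap of the intervals of neighbours. In K562/ADM the order was the same, but miR-27a* at 0.00998% of the library and miR-23b at 0.00976% had overlapping intervals. The last 4 names, with 6 reads or fewer in each library, could not be ordered in either. These are shares of reads of RNAs of nearly equal length, and how well each sequence was captured in the libraries was not measured.

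**Figure D3:**
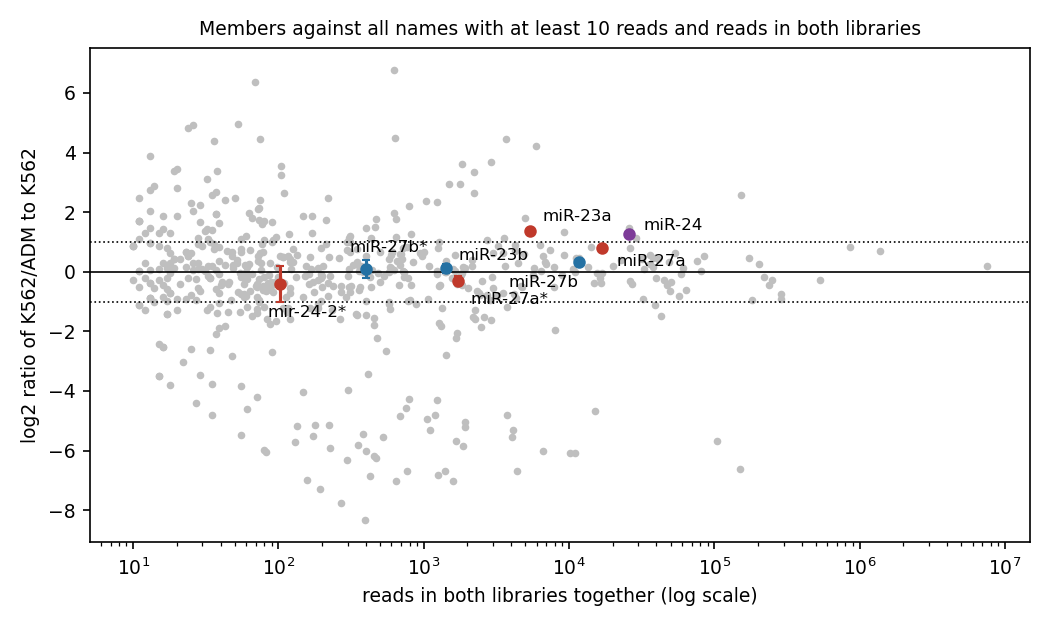
The y axis is the log2 ratio, K562/ADM over K562, and the x axis the reads of both libraries together on a log scale, for names with at least 10 reads and reads in both libraries. Grey points are all names and coloured points the 8 members, red for the a locus, blue for the b locus and purple for miR-24, with bars for the exact 95% interval of counting error. The red of mir-24-2* rests on its name alone. Dotted lines mark 2-fold, and miR-24 and miR-23a lie above the upper one while the other 6 lie between the lines, although miR-27a and miR-27b also pass 2-fold under upper-quartile scaling.

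In K562/ADM the miR-23 and miR-27 names of the a locus, summed, gained reads on those of the b locus. This gain rests on the guides, whose division between a and b is uncertain. The asterisk names of miR-27, which differ at 8 of 22 bases, went the other way. Reads of miR-27a* for each read of miR-27b* had a ratio of 0.760 (0.607 to 0.952), K562/ADM to K562. Without the miR-24 names, the a locus gave 9742 reads in the K562 library and 14329 in the K562/ADM library, and the ratio was 1.80 (1.76 to 1.85). The b locus had 6814 and 6832 reads, a ratio of 1.23 (1.19 to 1.27). As a share of the reads of both, the a locus held 58.8% (58.1 to 59.6) in K562 and 67.7% (67.1 to 68.3) in K562/ADM. A share within 1 library needs no scaling between libraries, so this difference is the same under every scaling tried.

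The shift was wider for miR-23 than for miR-27. MiR-23a made up 69.7% (67.9 to 71.5) of the miR-23 guide reads in K562 and 84.4% (83.3 to 85.5) in K562/ADM. For each read of miR-23b there were 2.30 reads of miR-23a in K562 and 5.43 in K562/ADM, values whose ratio was 2.36 (2.09 to 2.66). MiR-27a made up 54.4% (53.5 to 55.3) of the miR-27 guide reads in K562 and 62.6% (61.8 to 63.3) in K562/ADM, with 1.19 and 1.67 reads for each read of miR-27b and a ratio of 1.40 (1.34 to 1.47). In both pairs the interval excluded 1 and the a copy was the one that gained. The base that separates each pair is base 19 in both, so a read cut short of it cannot be assigned, and the part of such reads in these shares was not tested.

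**Figure D4:**
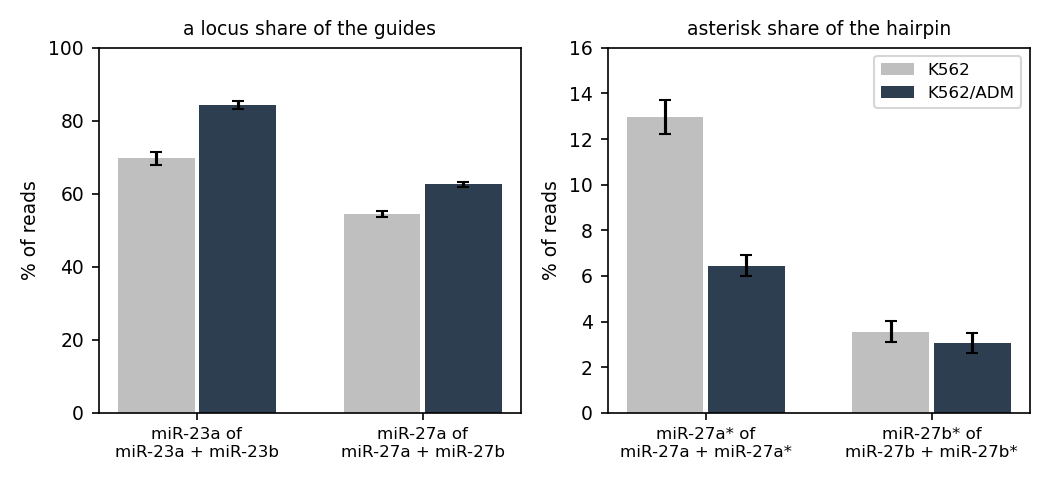
Left, reads of the a copy as a percentage of the reads of both guides for miR-23 and miR-27, and right, reads of the asterisk name as a percentage of the reads of its hairpin for miR-27a and miR-27b, in K562 (grey) and K562/ADM (dark). Bars start at 0 and error bars are exact 95% intervals of counting error. The a copy rises from 69.7% to 84.4% and from 54.4% to 62.6%, the asterisk share of miR-27a goes from 13.0% to 6.45%, and the intervals of miR-27b overlap.

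Names of 1 hairpin cluster did not move by the same factor. In the a locus, the reads of miR-23a for each read of miR-27a went from 0.251 to 0.366, a ratio of 1.46 (1.37 to 1.56). In the b locus the same comparison ran the other way, from 0.130 to 0.113 reads of miR-23b for each read of miR-27b, a ratio of 0.868 (0.776 to 0.970). MiR-24 kept pace with miR-23a, at 4.97 and 4.68 reads for each read of it, and the ratio of 0.941 (0.884 to 1.00) had an interval that includes 1. Against the other guides miR-24 gained, by 1.37 (1.32 to 1.43) on miR-27a, by 1.93 (1.84 to 2.02) on miR-27b and by 2.22 (1.99 to 2.48) on miR-23b. Among the guides miR-24 was thus closer to those of the a locus than to those of the b locus, although its reads cannot be divided between the loci.

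Other pairs of similar miRs show how wide such shifts ran in these libraries. Of 16 pairs listed for this comparison, 9 had at least 100 reads of each name in both libraries together. The size of their log2 ratio of ratios ran from 0.058 for miR-30a and miR-30e to 2.63 for miR-146a and miR-146b-5p, with a median of 0.48. On the same scale the miR-23 pair stood at 1.24, with 2 of the 9 pairs larger, and the miR-27 pair at 0.49, with 4 larger. The shift between miR-27a and miR-27b was thus close to the median of these pairs. Whether the names of each pair come from separate loci, as the a and b copies do, was not checked.

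The opposite strand of miR-27a did not follow its guide. Against 1036 reads of miR-27a* in K562 there were 688 in K562/ADM. Its ratio was 0.813 (0.737 to 0.896), the one member whose interval lay wholly below 1, while under upper-quartile scaling the ratio was 1.36. Within the hairpin, miR-27a* made up 13.0% (12.2 to 13.7) of the reads in K562 and 6.45% (5.99 to 6.93) in K562/ADM, whatever the scaling. For each read of miR-27a* the guide had 6.72 reads in K562 but 14.5 in K562/ADM, a ratio of 2.16 (1.95 to 2.39). Guide and asterisk name of this hairpin thus moved in opposite directions after scaling by the median of ratios.

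MiR-27b*, by contrast, had 214 reads and 187 reads, which gave a ratio of 1.07 (0.875 to 1.31). Its share of the hairpin was 3.54% (3.09 to 4.03) and 3.04% (2.62 to 3.50), with overlapping intervals, and the ratio of miR-27b over that of miR-27b* was 1.17 (0.954 to 1.44), an interval that includes 1. Between the loci, the asterisk names moved the other way from the guides: the reads of miR-27a* for each read of miR-27b* went from 4.84 to 3.68, a ratio of 0.760 (0.607 to 0.952). The a locus therefore gained in the guides of miR-27 but not in its asterisk names, whose sequences differ at 8 bases.

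Strand shifts of this kind were common in the table. Guide here again means only the name without an asterisk, which is not always the more abundant. MiR-144*, for example, had 44262 reads in K562 and miR-144 had 5564. In 53 other hairpins with at least 50 reads of each strand in both libraries together, the asterisk name lost on its guide in 36, and the median log2 of the asterisk ratio over the guide ratio was -0.28. The value for miR-27a was -1.11, with 8 of the 53 hairpins below it. For miR-27b it was -0.23, with 27 of the 53 below it. The spread over these hairpins ran from -2.24 for miR-154 to 1.48 for miR-376a. Both ends rest on few reads in K562/ADM, where miR-154* had 1 read, miR-154 had 3 and miR-376a had 10. Intervals were not computed for these hairpins, so the part of counting error in their spread is not known.

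**Figure D5:**
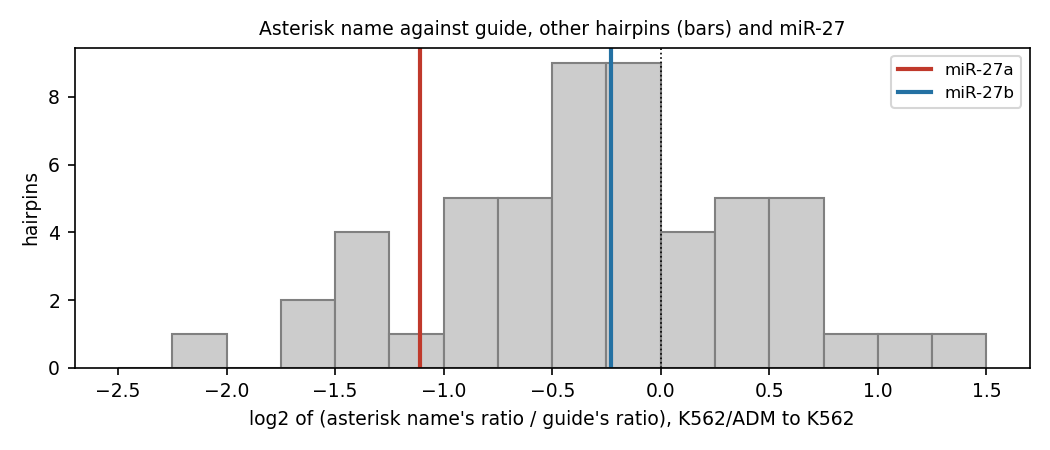
Number of hairpins (y axis) by the log2 of the asterisk name's ratio over the guide's ratio, K562/ADM to K562 (x axis), for 53 hairpins outside the family with at least 50 reads of each strand in both libraries together. Coloured lines mark miR-27a at -1.11, to the left of most bars, and miR-27b at -0.23, near the middle, and the dotted line marks equal ratios of both strands.

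The remaining asterisk names had few reads. For mir-24-2* there were 63 reads in K562 against 39 in K562/ADM, with a ratio of 0.758 (0.495 to 1.15). Together with miR-24-1* and miR-24-2* it gave 68 and 42 reads, or 0.778% (0.605 to 0.986) of the reads of the miR-24 hairpins in K562 and 0.245% (0.177 to 0.331) in K562/ADM. The miR-24 hairpins, like that of miR-27a, thus showed a lower share of asterisk names in K562/ADM, nearly all of it from the name whose spelling is unexplained.

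MiR-24-1*, the asterisk name particular to MIR24-1 of the b locus, was read 5 times in K562 and 1 time in K562/ADM, with a ratio of 0.245 (0.00518 to 2.19). MiR-24-2* of the a locus had 0 and 2 reads, and miR-23a* had 0 and 3. Both were within 3 reads, the number that a count of 0 allows, so no fold is given. MiR-23b* had 6 and 2 reads, a ratio of 0.408 (0.0403 to 2.28). At this depth these 4 names do not show which locus gave more miR-24, nor whether they differed between the lines. The authors had left out sequences seen once before counting, and the effect of this on names with few reads was not tested.

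The names nearest to a member in log2 ratio, among names outside the family whose reads in the 2 libraries sum to at least 1000, were taken as 3 for each of miR-27a, miR-24 and miR-23a. For miR-27a they were miR-330-3p at 1.75 (1.56 to 1.97), miR-96 at 1.75 (1.71 to 1.79) and miR-142-3p, known from blood cells, at 1.77 (1.76 to 1.77). For miR-24 they were miR-145 at 2.50 (2.39 to 2.61), miR-1260b at 2.22 (2.07 to 2.38) and miR-10a, whose gene lies in a HOX cluster, at 2.19 (2.14 to 2.25). For miR-23a they were miR-145, miR-1260b and miR-9, a miR best known from neurons, at 2.75 (2.67 to 2.82). Likeness here is that of 1 ratio between 2 libraries. MiR-451, an erythroid miR that has been reported to raise MDR1 in the same cancer cells and to lower it in breast cancer cells, was read 30470 times in the K562 library but 19738 times in that of K562/ADM, with a ratio of 0.793 (0.779 to 0.808), and miR-27a gained on it by 2.21 (2.14 to 2.29).

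The seed of miR-27 recurs, shifted by 1 base, in miR-128, a miR best known from the brain.
miR-27a: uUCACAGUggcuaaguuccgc
miR-128: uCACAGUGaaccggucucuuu
K562 gave 4192 reads of miR-128 and K562/ADM 5065, a ratio of 1.48 (1.42 to 1.54), between those of miR-27b and miR-27a. Outside the family, no miR that RefSeq gives bases 2 to 8 of a miR-23, miR-27 or miR-24 guide is listed in the table.

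Because miR-27a is reported to act on MDR1, the ABCB1 3′ UTR was searched for the 6 bases that pair with positions 2 to 7 of each guide. In the transcript used the UTR lies at chr7:87132333-87133558 (GRCh37, minus strand) and is 1226 nt long. The study's reporter carried a shorter segment of the MDR1 3′ UTR, too short to hold both of the miR-23 matches given next. Which of the matches lie within that segment was not tested. For miR-27 the letters are CTGTGA, and they occurred 1 time, at nucleotide 405 of the UTR. For miR-23 they are ATGTGA, which occurred 2 times, at nucleotides 375 and 1216. In the lines that follow, capitals mark the match on the strand of the mRNA.
miR-27 match at chr7:87133149-87133154: tgtccaaactgcCTGTGAatatatcttctc
first miR-23 match at chr7:87133179-87133184: aactaaactttcATGTGActggagtcatct
second miR-23 match at chr7:87132338-87132343: taaaaaaatctaATGTGAcattc
At the miR-27 match an A stands opposite position 1 and position 8 does not pair. Position 8 pairs at the second miR-23 match alone, and neither miR-23 match has the A.

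Matches of these letters alone are frequent. Of 2478 annotated 3′ UTRs of 981 to 1532 nt, 42.3% held the letters of miR-27 and 37.0% those of miR-23. These shares were counted whether or not an A stands opposite position 1. The share with that A, which the miR-27 match in ABCB1 has, was not computed. With position 8 also required to pair, the ABCB1 UTR held 1 match for miR-23, at nucleotide 1216 near its end, and 0 for miR-27. Of those UTRs, 15.7% held such a match for miR-23 and 12.5% one for miR-27. The letters of miR-24, TGAGCC, occurred 0 times in the ABCB1 UTR and in 35.1% of those UTRs, and those of miR-128, ACTGTG, 0 times and in 40.3%. A match describes the sequence and does not show that the miR binds there. MiR-27a and miR-27b share the seed and so the same match. Under the scaling used here their summed reads were 1.53-fold higher in K562/ADM, and ABCB1 itself was not measured in these libraries.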

How the data were processed

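Small RNA of K562 and K562/ADM was sequenced as 36-nt reads on a Genome Analyzer IIx, 1 library each. The authors report that they left out unique sequences seen once and mapped the others to miRBase 16 with Bowtie in miRanalyzer at default parameters. They divided the counts by DESeq size factors. CASAVA 1.7.0 is also named in the submitters' processing notes. The values in the deposited table are therefore signal, read counts per name over a size factor. Its other columns, a fold, a log2 fold and p-values, are the authors' own comparison and were not used.

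The smallest value above 0 in a column was taken as 1 read, and on that unit 100% of the 934 values of each column were whole within 0.001. Names with 1 read on this unit are at odds with the reported removal of sequences seen once, and the reason was not tested. Scaling was by the median of ratios, and intervals were exact binomial. A count model could not be fitted with 1 library per line. Ratios of ratios have exact conditional intervals and, like shares within a library, do not depend on the scaling. No p-value was computed.

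The members and lists were chosen with earlier results of these data known. Named are all members, miR-451, miR-128 for its shifted seed, and for each of miR-27a, miR-24 and miR-23a the 3 names with at least 1000 reads nearest in log2 ratio. Hairpins were placed on GRCh37 by matching their RefSeq sequences, and hosts and UTRs are from GENCODE on that build. MIR24-1 and MIR24-2 were placed by sequence alone. Alternatives were scaling by total reads, TMM, upper quartile or miR-425, other limits for a call, read minimums, 1 added to scaled reads, and locus shares with asterisk names included. The interval and call steps were tested on simulated data that held counting error alone, so variation between libraries was not part of that test. TMM and upper-quartile factors came from edgeR 4.0.16 in R 4.3.3. All else was computed in Python 3.11.15 with scipy 1.17.1, pandas 2.3.3 and numpy 2.4.6, and drawn with matplotlib 3.10.9.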

Additional observations from a re-analysis of the deposited data

How the results depend on the processing

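Relative to the median of ratios, every log2 ratio moved by -0.14 with total reads, by 0.00 with TMM, by 0.74 with the upper quartile and by -0.12 with miR-425. MiR-24 and miR-23a were called higher under all of these, with ratios of 2.20 to 4.04 and 2.33 to 4.29. Upper-quartile scaling raised the members called higher to 4, adding miR-27a at 2.94 and miR-27b at 2.10, their median log2 ratio to 0.97 and the log2 ratio of their summed reads to 1.63, while over all names it gave 223 higher and 95 lower in place of 104 and 146. The summed log2 ratio was 0.75 with total reads and 0.77 with miR-425. With 2-fold alone as the limit, 4 members were higher and 2 lower, since names with up to 8 reads then counted. With asterisk names included, the change of the b share of miR-27 reads was -6.48 in place of -8.18 percentage points. Of 50 values of single names under alternatives, 45 kept their sign. Of the other 5, miR-23b had a log2 ratio of -0.02 with total reads, miR-27b* -0.04 with total reads and -0.02 with miR-425, and upper-quartile scaling gave miR-27a* 0.44 and mir-24-2* 0.34. No library could be left out, and no paired analysis was possible because there was 1 library per line.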

Other observations

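The gene MIR3074 is known to lie over MIR24-1 on the opposite strand. The table lists 2 names with its number, which were looked at after their values had been seen. K562 gave 11 reads of miR-3074 and K562/ADM gave 5, a ratio of 0.557 (0.152 to 1.74). For mir-3074* there were 24 and 8 reads, a ratio of 0.408 (0.159 to 0.939), which was called lower, as were 15.6% of all 934 names. That call rests on few reads, and the lower-case spelling is unexplained here too. Neither value was followed further.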
